A study of Mus musculus with 5 samples.

Results

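T-high Cdh1-positive cells carry much RNA of T/Bra, the T-box transcription factor that marks primitive streak and early mesoderm, and still carry RNA of Cdh1, which encodes the epithelial adhesion molecule E-cadherin. They were chosen from single-cell RNA sequencing of mouse EpiSCs, a pluripotent stem cell line that corresponds to the epiblast after implantation, after 3 days of differentiation. In the 4 libraries of the FGF2 dose series, 1 without FGF2 and 3 with it, cell barcodes with at least 2500 detected genes and at most 10% mitochondrial unique molecular identifiers (UMIs, each counting 1 captured RNA molecule) were kept. A kept cell was taken if it held at least 8 UMIs of T, at most 1 UMI of Tbx6, a T-box factor of presomitic mesoderm, and at least 2 UMIs of Cdh1. This gate retained 471 of 8952 kept cells, which were 12 of 1696 without FGF2 and 88 of 2725, 168 of 2125 and 203 of 2406 with 0.75, 3 and 12 ng/ml.

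All cultures were wild-type EpiSCs of 129 background, derived from embryonic day 6.5 epiblast and grown in a 2D culture that lacks the embryo's other tissues. All received 1 µM Chi (Chir99021, which activates Wnt signaling) and 8 ng/ml BMP4, with 0, 0.75, 3 or 12 ng/ml FGF2. A further library was treated with 30 nM AZD4547, an inhibitor of Fgf receptors (FGFRi), and its FGF2 dose is not stated. Each condition is 1 library with no replicate, so no test was run, the spread between cultures is unknown, and dose and culture cannot be told apart.

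In the gastrulating embryo, epiblast cells are a columnar epithelium held together by E-cadherin. Cells that enter the primitive streak switch on T under Wnt, Nodal and Fgf signals, lose E-cadherin, gain N-cadherin (Cdh2) and leave as mesenchymal mesoderm. Cells that hold T and E-cadherin at the same time are therefore found in epithelium at or next to the streak, before or without this epithelial-to-mesenchymal transition.

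The level of a gene was computed as its UMIs summed over a set of cells per 1000000 UMIs of that set (CPM), with T, Tbx6 and Cdh1 left out. Intervals in parentheses are exact 95% intervals that cover counting error only, since cells of a library share their culture and are not replicates. The T-high Cdh1-positive cells were compared, within each library, with the other kept cells, and with the 2 sets nearest to the gate. The T-high Cdh1-negative cells met the same limits on T and Tbx6 but held no Cdh1 UMI, and numbered 16, 140, 213 and 198 in the order of the doses. The Cdh1-positive T-low cells had at least 2 UMIs of Cdh1, at most 1 of Tbx6 and at most 1 of T, and numbered 825, 972, 326 and 227. A gene was called different where 1 of the sets had at least 50 CPM and the ratio was at least 2. Calls were counted only where all 3 libraries with FGF2 added passed, since 12 cells without FGF2 are too few.

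The kept cells of the libraries held 56812075, 81538748, 64607114 and 70776993 UMIs in the order of the doses. Because the gate uses raw counts, it takes deep cells more readily. The T-high Cdh1-positive cells had a median of 45492.5, 32903, 33811 and 32622 UMIs in the order of the doses, against 29608.5, 27404, 28119 and 26913 in the other kept cells. T-high Cdh1-negative cells lay between, with medians of 34068.5, 31362, 30463 and 29851. Barcodes of 2 cells could also pass the gate, and no doublet filter was applied. Of the T-high Cdh1-positive cells, 25.0%, 25.6% and 20.2% at 0.75, 3 and 12 ng/ml were among the deepest 10% of their library. The 4 libraries shared 4 barcodes among kept cells, 2 of them T-high Cdh1-positive cells, and none between gated cells.

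The gate fixed the values of its 3 genes, which are given as a description. The median T count of the gated cells was 17, 14, 17 and 16 UMIs in the order of the doses, with a maximum of 80. Their median Cdh1 count was 3.5 UMIs without FGF2 and 3 at each other dose, against 4 in the Cdh1-positive T-low cells of each library. At the edges of the gate, 29 members had 8 T UMIs and 36 cells missed it with 7. A further 185 members had 2 Cdh1 UMIs, and 249 cells missed the gate with 1. Tbx6 stood at 1 UMI in 68 members, and 24 cells missed the gate with 2.

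The share of T-high Cdh1-positive cells was 0.708% (0.366 to 1.23) of kept cells without FGF2, and 3.23% (2.60 to 3.96), 7.91% (6.79 to 9.14) and 8.44% (7.36 to 9.62) with 0.75, 3 and 12 ng/ml. The intervals of the first 3 doses do not overlap, whereas those of 3 and 12 ng/ml do. The shares depend on depth, and with T, Tbx6 and Cdh1 scaled to 25000 UMIs per cell before the gate they were 0.295%, 1.43%, 4.24% and 5.07%. In the FGFRi library, 0 of 1701 kept cells passed, which allows a share of up to 0.176% by a floor of 3 counts, or 0.217% by the exact interval, and no cell there held more than 5 UMIs of T. Over the same doses, the share of Cdh1-positive T-low cells was 48.6%, 35.7%, 15.3% and 9.43%. Among all cells with at least 8 T UMIs, whatever their Tbx6, those with at least 2 Cdh1 UMIs made up 33.3%, 30.7%, 30.0% and 35.3% in the order of the doses. Among all kept cells the same fraction was 51.4%, 42.7%, 28.3% and 23.8%, so that T-high cells were poorer in Cdh1-positive cells than the whole library at the lowest doses and richer at 12 ng/ml.

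**Figure D1:**
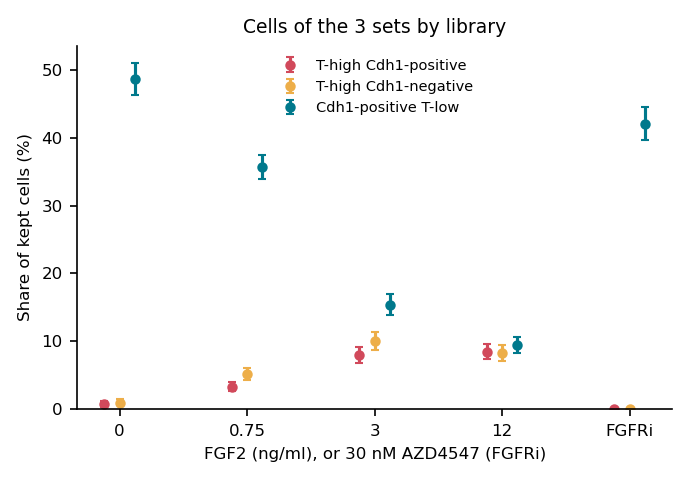
Share of kept cells (%) in 3 gated sets for the 4 FGF2 doses (ng/ml) and the FGFRi library, 1 library each; bars are exact binomial 95% intervals. T-high Cdh1-positive cells went from 0.708% without FGF2 to 8.44% at 12 ng/ml and were absent from 1701 FGFRi-treated cells, while Cdh1-positive T-low cells made up 48.6% and 9.43%.

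To see where these cells lay among all cells, the 15 nearest neighbors of each were found within its library over 50 principal components of 2445 variable genes without T, Tbx6 and Cdh1. Of these neighbors, 10.0%, 22.2%, 32.2% and 37.4% were themselves T-high Cdh1-positive cells in the order of the doses, against their 0.708%, 3.23%, 7.91% and 8.44% of kept cells. T-high Cdh1-negative cells made up 7.22%, 18.6%, 17.4% and 15% of the neighbors. Cdh1-positive T-low cells were rarer there than in the library, with 27.2%, 10.1%, 3.85% and 3.32%. Not all gated cells lay together, and 21 of 88, 16 of 168 and 19 of 203 at 0.75, 3 and 12 ng/ml had no other gated cell as a neighbor.

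**Figure D2:**
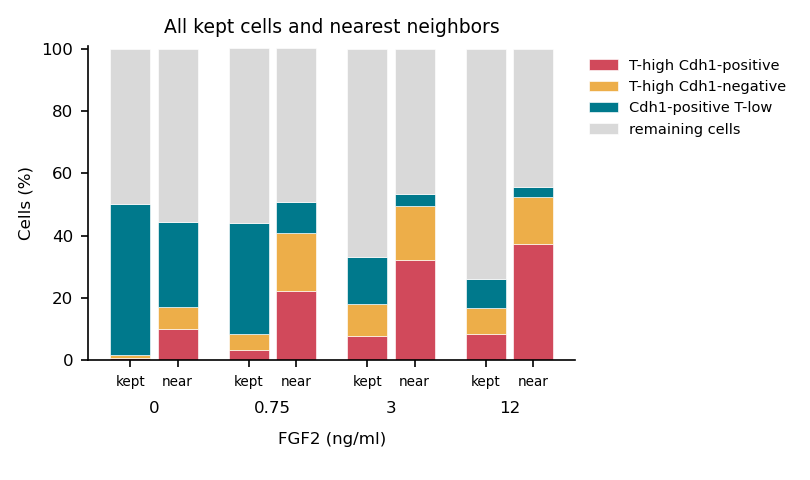
Make-up (% of cells) of all kept cells of a library (kept) and of the 15 nearest neighbors of its T-high Cdh1-positive cells (near), by FGF2 dose (ng/ml). At 12 ng/ml, 37.4% of neighbors were T-high Cdh1-positive against 8.44% of kept cells, and 3.32% were Cdh1-positive T-low against 9.43%.

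The label epithelial streak-like was checked against a list of 12 genes of the primitive streak and nascent mesoderm. Fgf8, the streak's main Fgf ligand, was measured at 159, 222, 308 and 306 CPM in the order of the doses, Mixl1, a streak homeobox factor, at 18.1, 36.2, 27.8 and 35.3 CPM, and Evx1, a factor of the posterior streak, at 19.7, 34.4, 39.7 and 31.2 CPM. Sp5, a Wnt-induced transcription factor, stood at 98.6, 133, 151 and 148 CPM. Several defining genes of the anterior streak, the node and the endoderm were near 0. Eomes, which specifies mesendoderm, reached at most 4.09 CPM in any library, Gsc, the organizer gene, 1.27 CPM, Foxa2 2.76 CPM, Sox17 4.93 CPM, Shh 0.921 CPM, and Noto and Cer1 0.158 CPM. Others of these lists were measured at low levels. Apela, a peptide ligand gene of the endoderm list, stood at 14.8, 19.4 and 14.1 CPM at 0, 0.75 and 3 ng/ml, against 3.13, 3.49 and 2.68 CPM in the other kept cells, and was under 10 CPM in both sets at 12 ng/ml. Lhx1, a homeobox factor of the node list, was at 12.3, 16.0 and 9.74 CPM from 0.75 ng/ml on, against 2.82, 7.17 and 13.9 CPM. The cells therefore carried some but not all genes of a streak, and they are called here by their gate.

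Of the same 12 genes, 8 had at least 10 CPM in the gated or the other kept cells of all 3 libraries, 5 of these were higher in the gated cells throughout, 2 by a ratio of at least 2, and none lower. Among all 7838 genes at that level, 29.7% were higher and 28.1% lower throughout, and 1.33% and 0.383% were so by a ratio of at least 2. Within the list, the ratios were largest at low dose, since the other kept cells there had little of these RNAs. Fgf8 was 6.91-fold (5.56 to 8.50) higher than in the other kept cells without FGF2, and 3.36-fold (3.11 to 3.64), 2.21-fold (2.10 to 2.33) and 2.12-fold (2.02 to 2.23) higher at 0.75, 3 and 12 ng/ml. Mixl1 stood at 1.76, 6.64, 21.3 and 28.4 CPM in the other kept cells, so that its ratio was 10.3 without FGF2 and 1.24 at 12 ng/ml. At 0.75 ng/ml Mixl1 reached 10 CPM only in the gated cells, so the filter fixed its direction there. Against the T-high Cdh1-negative cells, which had 226, 276 and 304 CPM of Fgf8 at 0.75, 3 and 12 ng/ml, the gated cells differed by a ratio of 0.98 (0.891 to 1.08), 1.117 (1.048 to 1.19) and 1.01 (0.947 to 1.07).

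Of 2935 genes tested, 30 (1.02%) were called higher and 10 (0.341%) lower in the T-high Cdh1-positive cells than in the other kept cells of all 3 libraries. The higher genes included a binding protein of insulin-like growth factors (Igfbp3), the BMP and activin antagonist Fst, RNA of pluripotent cells (L1td1), an antagonist of Nodal (Lefty1) and genes inducible by interferon (Gbp2, Gbp2b, Irf1, Psmb8, Irgm1). L1td1, Lefty1, Gbp2, Gbp2b, Irf1, Psmb8 and Irgm1 reached 50 CPM only in the gated cells of all 3 libraries. Igfbp3 did so at 0.75 ng/ml, and Fst at 0.75 and 3 ng/ml. The filter fixed the direction of these genes there. Some of the calls ended under other settings. Lefty1 was not called with the scaled gate, with at least 3 Cdh1 UMIs, without the deepest 10% of cells, in cells of 20000 to 40000 UMIs or when the library without FGF2 also had to pass. Gbp2, Gbp2b and Irgm1 were not called under either depth setting, since their levels came under 50 CPM at 3 ng/ml. Psmb8, Fgf8 and Vim were not called with at least 3 Cdh1 UMIs, and L1td1 and Vim when the library without FGF2 also had to pass. The lower genes were Hox genes (Hoxa7, Hoxb4, Hoxb9, Hoxc6, Hoxc8) and the noncoding Hoxb5os, the retinoic acid-binding protein gene Crabp1, the growth factor genes Igf2 and Ptn, and the unannotated Gm45889. Of these, Ptn was not called with the scaled gate, and Ptn and Gm45889 not with at most 5% mitochondrial UMIs. Hoxc6 was not called with at least 3 Cdh1 UMIs, and Hoxb4 not when the library without FGF2 also had to pass. Crabp1, Igf2, Ptn, Hoxa7, Hoxb4, Hoxc6 and Hoxb5os reached 50 CPM only in the other kept cells of all 3 libraries. Gm45889 did so at 3 and 12 ng/ml, and the filter fixed the direction of these lower genes there. Lefty1 had a ratio of 3.07 at 12 ng/ml without the deepest 10% of cells and of 3.18 among cells of 20000 to 40000 UMIs, with levels of 47.4 and 43.9 CPM, and Irgm1 a ratio of 3.28 at 3 ng/ml among cells of 20000 to 40000 UMIs, with 46.5 CPM. The median log2 ratio over genes of at least 10 CPM was between -0.06 and 0.02 in the 4 libraries, so that levels were compared without further scaling.

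Igfbp3 (chr11:7206086-7213923, minus strand, GRCm38) stood first when genes were ordered by their smallest ratio over these libraries. The level was 385, 435, 437 and 540 CPM in the gated cells, in the order of the doses, and at 18.5, 37.7, 50.2 and 51.5 CPM in the other kept cells. The ratio was 20.7 (17.9 to 23.9) without FGF2, and 11.5 (10.8 to 12.3), 8.70 (8.25 to 9.16) and 10.5 (10.00 to 10.98) with FGF2. Fst (chr13:114452290-114458951, minus strand) was measured at 69.0, 182, 307 and 249 CPM, against 5.12, 12.0, 38.0 and 50.3 CPM in the other kept cells. Its level in the gated cells was lowest without FGF2 and highest at 3 ng/ml, and in Cdh1-positive T-low cells it lay between 1.73 and 4.74 CPM. Sprr2a3, a small proline-rich protein gene of a family whose near-identical copies make its counts uncertain, stood at 388, 229, 414 and 427 CPM, against 4.41, 26.4, 73.0 and 80.7 CPM.

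Genes of pluripotency formed another group. Of 15 listed genes of the epiblast and pluripotency, 11 passed 10 CPM in all 3 libraries, 7 of them were higher in the gated cells throughout, 3 by a ratio of at least 2, and none was lower, against 29.7% and 1.33% of all genes at that level that were higher. Of these, Pou5f1 reached 10 CPM only in the gated cells, so the filter fixed its direction. Pou5f1, which encodes the pluripotency factor OCT4, stood at 47.7, 35.3, 36.7 and 38.8 CPM in the gated cells and at 3.27, 5.88, 7.84 and 8.28 CPM in the other kept cells, a ratio of 14.6 (9.48 to 21.6) without FGF2 and between 4.68 and 6.01 at the other doses. The T-high Cdh1-negative cells had 3.47, 11.2, 12.2 and 13.3 CPM of it, and the Cdh1-positive T-low cells 3.65, 6.07, 7.69 and 12.8 CPM, so that the gated cells were above both in each library. Nanog, a factor of the same network, was low, with 6.58, 13.5, 5.54 and 9.32 CPM, against at most 1.39 CPM in the other kept cells. L1td1, which encodes an RNA-binding protein of pluripotent cells, stood at 47.7, 76.2, 79.9 and 88.4 CPM in the gated cells and at between 7.46 and 17.4 CPM in the others.

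Because the gated cells were deeper, detection was also compared after each cell was thinned to 10000 UMIs. Pou5f1 was then detected in 22.6% (16.5 to 29.7) of the gated cells at 3 ng/ml and in 33.0% (26.6 to 39.9) at 12 ng/ml, against 53% and 57.6% before thinning. In T-high Cdh1-negative cells the thinned shares were 9.86% and 10.7%, and in Cdh1-positive T-low cells 5.56% and 9.69%, from 21.6%, 26.3%, 15% and 22% before thinning. The part of free RNA in these shares was not tested. Most gated cells had no Pou5f1 UMI at this depth.

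Of 10 genes of the Nodal pathway, 5 passed 10 CPM in all 3 libraries and all 5 were higher in the gated cells than in the other kept cells of each, 2 of them by a ratio of at least 2, against 29.7% and 1.33% of all genes. Nodal in all 3 libraries and Lefty1 at 0.75 ng/ml reached 10 CPM only in the gated cells, so the filter fixed their direction there. Nodal itself, the ligand that induces mesendoderm, stood at 21.4, 20.9, 20.2 and 39.5 CPM, against 6.05, 4.91, 4.70 and 4.67 CPM in the other kept cells, and was 3.13-, 3.54- and 6.497-fold higher than in T-high Cdh1-negative cells at 0.75, 3 and 12 ng/ml. Lefty1, its feedback antagonist, was measured at 23.0, 65.1, 64.2 and 59.6 CPM, against 2.69, 6.02, 13.7 and 16.9 CPM. Few cells carried it, with UMIs in 19 of 88, 49 of 168 and 59 of 203 gated cells at 0.75, 3 and 12 ng/ml, and 5 cells held 70.8%, 58.4% and 37.2% of all Lefty1 UMIs of the gated cells.

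**Figure D3:**
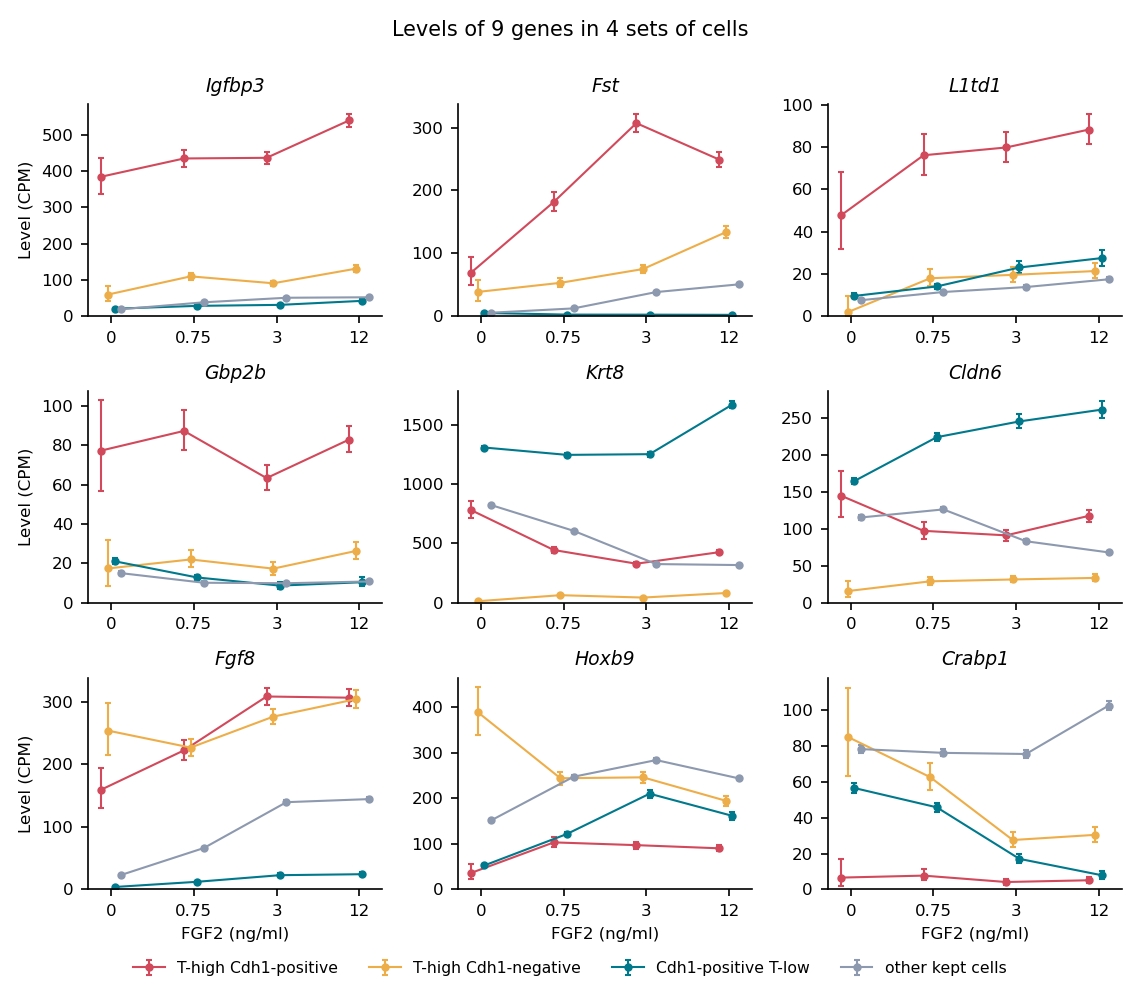
Level (CPM) of 9 genes by FGF2 dose (ng/ml) in T-high Cdh1-positive cells, the 2 nearest sets and all other kept cells, 1 library per dose; bars are exact Poisson 95% intervals. Igfbp3, Fst, L1td1 and Gbp2b were highest in the T-high Cdh1-positive cells at each dose and Crabp1 was lowest there, while Krt8 and Cldn6 lay between both nearest sets.

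A further group was noticed only after the levels had been seen and is given as a description. Of 29 interferon-inducible and antigen presentation genes, 17 had at least 10 CPM in all 3 libraries, all 17 were higher in the gated than in the other kept cells, and 12 were so by a ratio of at least 2, where 29.7% and 1.33% of all 7838 genes were. Gbp3, Tap1 and Tap2 reached 10 CPM only in the gated cells of these libraries, so the filter fixed their direction. The same held for Gbp2b at 3 ng/ml and for Psmb8 and Isg15 at 0.75 ng/ml. Their summed level was 2209, 1977, 1770 and 2149 CPM in the gated cells in the order of the doses, 626.6, 671.5, 773.7 and 878.7 CPM in the other kept cells, 1174, 1305, 1178 and 1424 CPM in T-high Cdh1-negative cells, and 694.2, 631.3, 569.9 and 811.4 CPM in Cdh1-positive T-low cells. By these sums both T-high sets were above the rest, and the Cdh1-positive set was the higher of the pair. Against Cdh1-positive T-low cells, 19 of 20, 18 of 19 and 19 of 22 genes at 10 CPM were higher at 0.75, 3 and 12 ng/ml. H2-D1 was lower throughout, with 42.1, 46.7 and 45.2 CPM against 55.4, 56.4 and 68.0 CPM. In T-high Cdh1-negative cells, H2-K1 and B2m lay below the other kept cells in these libraries.

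Within this group, Gbp2b (chr3:142594847-142619179, plus strand), a guanylate-binding GTPase, stood at 77.3, 87.2, 63.3 and 82.9 CPM against 14.98, 10.1, 9.87 and 10.8 CPM in the other kept cells. Its ratio was 5.16 (3.76 to 6.92), 8.63 (7.51 to 9.90), 6.41 (5.63 to 7.30) and 7.70 (6.89 to 8.61) in the order of the doses. Its neighbor Gbp2 stood at 104, 90.6, 56.5 and 86.7 CPM against 15.8, 11.3, 12.2 and 13.7 CPM. The counts of both are uncertain, since they may be shared between these related genes, which was not tested. Restricted to cells with 20000 to 40000 UMIs, the level of both at 3 ng/ml was under 50 CPM, with 41.0 CPM for Gbp2b and 45.5 CPM for Gbp2, at ratios of 6.14 and 5.14. Irf1, a transcription factor that activates such genes, was at 69.0, 63.3, 57.7 and 72.0 CPM against 8.13, 11.3, 14.0 and 14.3 CPM. Psmb8, a subunit of the immunoproteasome, was at 108, 81.4, 56.1 and 72.4 CPM in the gated cells and at most at 1.87 CPM in Cdh1-positive T-low cells. In T-high Cdh1-negative cells Psmb8 stood at 79.9, 49.0, 35.1 and 49.1 CPM, so that it was high in both T-high sets.

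The 250 bases before the start of these genes were read from RefSeq (GRCm38.p6) and searched on both strands for GAAA followed by any 2 bases and a further GAAA, a core of the element bound by IRF factors. Of the 29 genes, 24 had a promoter in the table and 13 of them held this motif. Of the 17 genes counted as higher above, 15 had a promoter and 6 held it, Irf1 and Psmb8 not among them. Among all 32536 promoters of that length, 2.98% held it. A match is a description of the letters and not a bound site. The matches of Gbp2b and Isg15, genes whose levels are given here, are shown as examples, read in the direction of the gene with the motif in capitals.
Gbp2b, chr3:142594695-142594734, plus strand: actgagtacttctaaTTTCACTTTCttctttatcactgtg
Isg15, chr4:156200860-156200911, minus strand: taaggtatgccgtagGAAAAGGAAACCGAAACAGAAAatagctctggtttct
The motif occurs 1 time in the Gbp2b window, on the opposite strand, and 3 overlapping times in the Isg15 window.

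Of the 10 genes called lower in the gated cells, 5 were Hox genes, which encode positional factors that come on in sequence in the posterior body. Of 39 Hox genes, 22 had at least 10 CPM in all 3 libraries, 21 of them were lower in the gated than in the other kept cells, 6 by a ratio of at least 2, and none was higher, against 28.1% and 0.383% of all genes that were lower. The median log2 ratio of those at or above 10 CPM was -0.73, -0.75, -0.76 and -0.89 in the order of the doses. Hoxb9 (chr11:96271457-96276595, plus strand) stood at 36.2, 103, 97.1 and 90.2 CPM in the gated cells and at 151, 247, 284 and 244 CPM in the others, which is 4.18-fold (2.76 to 6.68), 2.40-fold (2.15 to 2.68), 2.92-fold (2.70 to 3.17) and 2.70-fold (2.50 to 2.93) lower. T-high Cdh1-negative cells had 389, 244, 246 and 195 CPM, and lay at or below the other kept cells from 0.75 ng/ml on. Cdh1-positive T-low cells had 121.7, 210.1 and 161.5 CPM of Hoxb9 at 0.75, 3 and 12 ng/ml. Their Hoxb4 level of 32.45, 44.77 and 28.12 CPM was near the 25.8, 40.02 and 32.18 CPM of the gated cells. Against this set, 19 Hox genes had at least 10 CPM in all 3 libraries. Of them, 6 were lower in the gated cells throughout, 1 by a ratio of at least 2, and 3 were higher. These counts lie near the shares of all 7984 genes at that level, of which 30.5% were lower and 31.8% higher. Cdx2, an upstream regulator of posterior Hox genes, differed little, with 92.0, 175, 207 and 175 CPM in the gated and 109, 189, 220 and 186 CPM in the other kept cells.

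Crabp1 (chr9:54764748-54773110, plus strand) showed the largest of the lower ratios. It stood at 6.58, 7.68, 4.11 and 5.08 CPM in the gated cells and at 78.2, 76.1, 75.5 and 102.5 CPM in the other kept cells, which is 11.9-fold (4.64 to 43.7), 9.91-fold (6.71 to 15.3), 18.4-fold (12.5 to 28.1) and 20.2-fold (14.6 to 28.8) lower. At 0.75 ng/ml Crabp1 was 34.2-fold lower in cells of 20000 to 40000 UMIs and 20.3-fold lower without the deepest 10%. These folds rest on 4 and 8 UMIs in the gated cells. Both nearest sets were above the gated cells in each library, with 85.1, 62.6, 27.5 and 30.4 CPM in T-high Cdh1-negative and 56.6, 45.8, 17.0 and 7.86 CPM in Cdh1-positive T-low cells. A list of retinoid genes was chosen after the levels had been seen. Of its 4 genes at or above 10 CPM in all 3 libraries, 3 were lower in the gated cells and none higher. This is a small count beside 28.1% of all genes. The filter fixed the direction of Crabp1, which reached 10 CPM only in the other kept cells. Igf2, a growth factor gene expressed from the paternal allele, was at 37.8, 29.5, 23.7 and 19.1 CPM against 275, 160, 103 and 81.6 CPM in the other kept cells, with the highest level in both sets without FGF2.

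Of 13 presomitic genes, 4 had at least 10 CPM in all 3 libraries, 3 of these were lower than in the other kept cells throughout and none higher, against 28.1% of all genes that were lower. The fourth, Rspo3, was higher at 0.75 and 3 ng/ml and lower at 12 ng/ml, with 416, 459 and 410 CPM against 208, 405 and 434.5 CPM. The list summed to 337.0, 478.6, 581.8 and 528.9 CPM in the gated cells and to 155.2, 320.3, 620.7 and 731.0 CPM in the other kept cells, most of it Rspo3 in the gated cells. The median log2 ratio of the list was 0.59 without FGF2 and -0.57, -0.59 and -1.56 at the other doses. Dll1, a Notch ligand of presomitic mesoderm, was at 6.76, 21.8 and 24.4 CPM at 0.75, 3 and 12 ng/ml against 20.6, 49.6 and 72.2 CPM. Msgn1, a master factor of that tissue, reached 1.83 CPM in the gated cells. Tbx6, which the gate limits, acts upstream of both genes, and its part in these levels was not tested. At 0.75 ng/ml Dll1 reached 10 CPM only in the other kept cells, so the filter fixed its direction there. Of the lists for other tissues, no gene of definitive endoderm and none of neurectoderm had 10 CPM in all 3 libraries, and 1 of the node and axial mesendoderm, 1 of the hemato-endothelial and 1 of the extraembryonic ectoderm list had. Genes of lateral and extraembryonic mesoderm were measured, 7 of 14 in all 3 libraries, with a summed level of 547.4, 448.8, 266.7 and 220.6 CPM in the gated and 1265, 472.4, 246.7 and 264.8 CPM in the other kept cells.

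The comparison with T-high Cdh1-negative cells shows which RNAs went with Cdh1 among cells that met the same limits on T and Tbx6. T itself was not matched, its median being 17, 14, 17 and 16 UMIs in the gated cells and 12, 13, 12 and 12 in the T-high Cdh1-negative cells, and its part in the differences was not tested. Of 2945 genes, 32 (1.09%) were called higher and 7 (0.238%) lower in the Cdh1-positive cells in all 3 libraries. Epithelial genes were among the former. Of 26 genes of junctions, keratins and polarity, 18 had at least 10 CPM and all 18 were higher in all 3 libraries, 12 by a ratio of at least 2, while among all 7761 genes at this level 30.1% were higher and 28.3% lower throughout, and 1.34% and 0.348% were so by a ratio of at least 2. The 5 measured genes of epithelial transcription and splicing factors were also higher in all 3 libraries.

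Krt8, a keratin of simple epithelia, stood at 781, 444, 329 and 426 CPM in the gated cells and at 12.2, 63.0, 43.1 and 81.2 CPM in the T-high Cdh1-negative cells. The ratio was 64.2 (30.9 to 161), 7.05 (6.21 to 8.02), 7.63 (6.75 to 8.65) and 5.25 (4.77 to 5.77) in the order of the doses. Its partner Krt18 followed, with ratios of 6.89, 6.55 and 4.89 from 0.75 ng/ml on. At 0.75 ng/ml, 5 of the 88 gated cells held 45.3% of their Krt8 UMIs. Without the deepest 10% of cells, the levels at this dose were 275 against 66.8 CPM for Krt8 and 265 against 66.3 CPM for Krt18. Epcam, an epithelial adhesion molecule, was at 345, 323, 309 and 367 CPM against 64.3, 117, 105 and 133 CPM, and Cldn6, a claudin of tight junctions in early embryos, at 145, 97.1, 91.0 and 117 CPM against 15.6, 28.8, 31.3 and 33.5 CPM. Calls beyond junctions included the glucose transporter gene Slc2a1, the ligand gene Wnt6, the annexin gene Anxa2 and the calcium-binding protein gene S100a10. Of these, Wnt6 was not called without the deepest 10% of cells or in cells of 20000 to 40000 UMIs, nor S100a10 without the deepest 10% or with equal weights per cell. Gbp2 and Gbp2b were also not called under the depth settings, since their levels were under 50 CPM at 3 ng/ml. Klf5, a factor of pluripotent and epithelial cells, was 1.84-, 2.30- and 1.89-fold higher from 0.75 ng/ml on.

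The 7 lower genes were Hoxb4, Hoxb9, Hoxc6, Hoxc8, Hoxd4, Hoxb5os and Gm45889. Hoxc8 was not called with at most 5% mitochondrial UMIs. Of 25 Hox genes at or above 10 CPM, 23 were lower in all 3 libraries and none higher, against 28.3% and 30.1% of all 7761 genes at that level. Mesenchymal genes were divided. Cdh2 stood at 78.9, 79.2, 96.6 and 101.2 CPM in the gated cells, 163, 136, 159 and 142 CPM in the T-high Cdh1-negative cells and at between 11.7 and 26.4 CPM in the Cdh1-positive T-low cells. Zeb1, a repressor of Cdh1, was at 6.45, 6.17 and 6.92 CPM from 0.75 ng/ml on, against 21.9, 19.9 and 16.2 CPM. The intermediate filament gene Vim went the other way, with 432, 334 and 394 CPM against 237, 214 and 288 CPM. Rspo3, an enhancer of Wnt signaling made in the streak, was 1.501-fold (1.41 to 1.60), 1.45-fold (1.38 to 1.52) and 1.53-fold (1.46 to 1.61) lower in the gated cells, and Fgf3, another streak ligand, 6.07-, 2.28- and 2.40-fold lower.

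Against the Cdh1-positive T-low cells, 46 genes (1.54%) of 2996 were called higher and 33 (1.1%) lower in all 3 libraries. The higher genes held streak and caudal ligands. Rspo3 stood at 293, 416, 459 and 410 CPM against 9.05, 18.3, 24.6 and 22.9 CPM, a ratio of 32.3 (26.6 to 39.2), 22.8 (20.6 to 25.2), 18.6 (16.4 to 21.3) and 17.9 (15.3 to 21.0). Fgf8 was 18.3-, 13.6- and 12.6-fold higher from 0.75 ng/ml on, and Wnt5b, a ligand of noncanonical Wnt signaling, 5.52-, 5.004- and 4.41-fold. Cdh2 was 6.75-, 8.01- and 6.28-fold higher. Thinned to 10000 UMIs, 55.4% and 54.7% of gated cells had a Cdh2 UMI at 3 and 12 ng/ml, against 9.26% and 11.5% of the Cdh1-positive T-low and 75.6% and 70.1% of the T-high Cdh1-negative cells. Unthinned shares were 78.6% and 82.3%, 17.5% and 26.4%, and 95.8% and 89.9%.

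Epithelial genes were lower than in the Cdh1-positive T-low cells. Of 21 junction, keratin and polarity genes at or above 10 CPM, 19 were lower in all 3 libraries, 9 by a ratio of at least 2, and none was higher. Among all 7984 genes at this level, 31.8% were higher and 30.5% lower throughout, and 1.95% and 2.08% by a ratio of at least 2. Krt8 was 2.81-fold (2.66 to 2.96), 3.81-fold (3.64 to 3.996) and 3.93-fold (3.77 to 4.09) lower from 0.75 ng/ml on, and Epcam 1.76-, 1.96- and 1.79-fold. Rab25, a GTPase of apical trafficking, was at 9.52, 7.59 and 12.3 CPM against 66.6, 78.9 and 55.0 CPM. At 0.75 and 3 ng/ml Rab25 reached 10 CPM only in the Cdh1-positive T-low cells. The filter of the list count fixed its direction there, as for any listed gene under 10 CPM in the gated cells. Esrp1, a splicing factor of epithelia, was 2.08-, 2.86- and 2.46-fold lower, and Tfap2c, a factor of surface ectoderm, trophoblast and germ cells, 2.38-, 6.11- and 2.67-fold. The ligand gene Wnt4, the binding protein gene Igfbp2 and the imprinted gene Mest were also called lower. Esrp1 was not called with equal weights, with the scaled gate or in cells of 20000 to 40000 UMIs, and Krt8, Rab25, Mest and, among the higher genes, Wnt5b not when the library without FGF2 also had to pass.

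**Figure D4:**
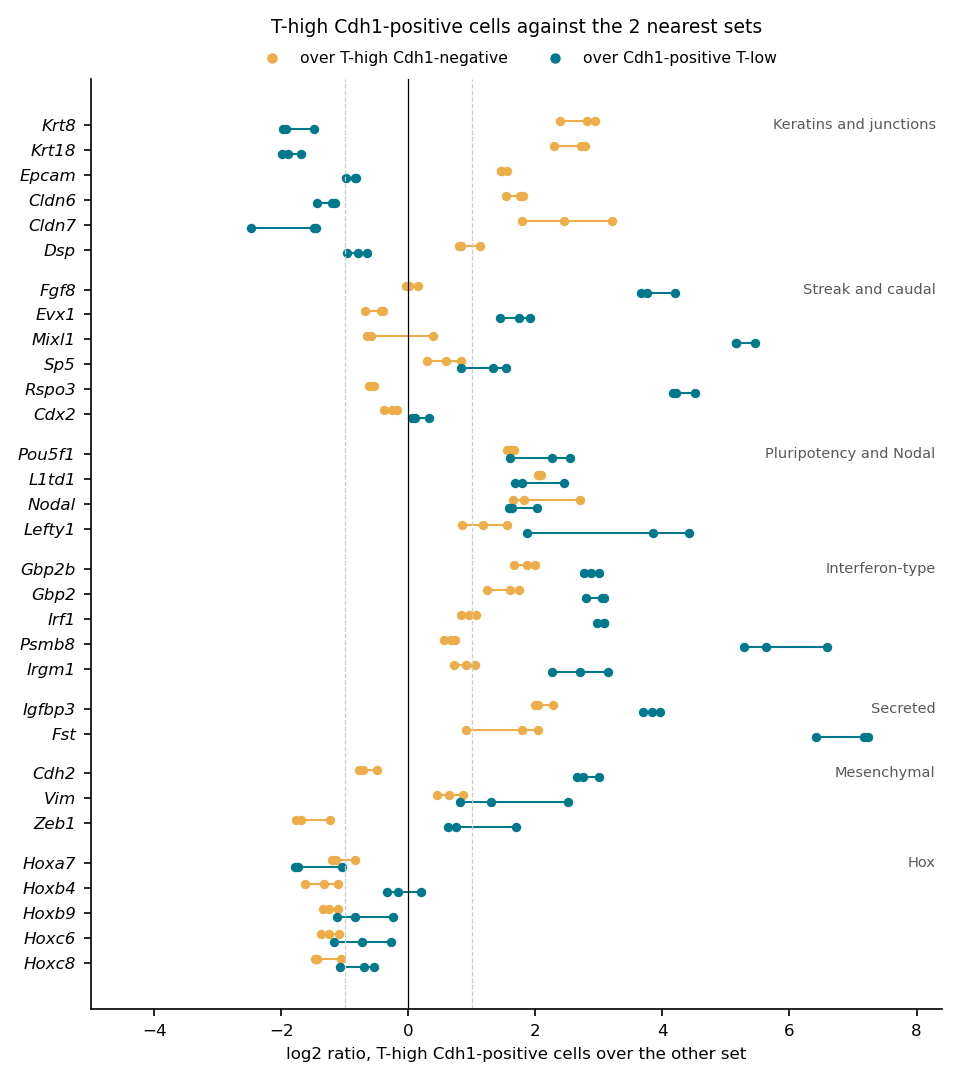
log2 ratio of 31 genes in T-high Cdh1-positive cells over T-high Cdh1-negative and over Cdh1-positive T-low cells; points are the libraries at 0.75, 3 and 12 ng/ml FGF2, joined by a line, and dashed lines mark a ratio of 2 in either direction. Keratins and junction genes lay above the former set and below the latter, Rspo3 and Cdh2 the reverse, and Pou5f1, L1td1, Nodal, Gbp2b, Gbp2 and Igfbp3 were above both.

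To separate genes at an intermediate level from those beyond both nearest sets, each of 3133 genes with at least 50 CPM in any of the 3 sets was placed against both. In all 3 libraries, 424 genes (13.5%) lay between the sets with the higher level in Cdh1-positive T-low cells, and 515 (16.4%) lay between them with the higher level in T-high Cdh1-negative cells. A barcode that held 1 cell of each nearest set would lie between them as well, so an intermediate level alone does not tell such barcodes from single cells. A total of 374 genes (11.9%) were above both sets in all 3 libraries by any ratio and 172 (5.49%) below both. By a ratio of at least 2, 5 genes (0.16%) were above both, namely Igfbp3, L1td1 (chr4:98726734-98738480, plus strand), Gbp2b, Gbp2 (chr3:142620602-142638008, plus strand) and Rtl8b (chrX:53669177-53670408, minus strand), and none (0.0%) was below both. Pou5f1 and Nodal were above both by such a ratio but under 50 CPM. Of the 5 genes, L1td1, Gbp2b, Gbp2 and Rtl8b reached 50 CPM only in the gated cells, so the filter fixed their direction. Rtl8b, a retrotransposon-derived gene with near-identical copies, stood at 72.3, 57.8, 70.1 and 60.4 CPM, against at most 33.0 CPM in either nearest set.

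Igfbp3 was 3.98-fold (3.59 to 4.41), 4.84-fold (4.43 to 5.29) and 4.14-fold (3.84 to 4.47) above the T-high Cdh1-negative and 15.6-fold (14.3 to 17.0), 14.3-fold (12.7 to 16.1) and 12.9-fold (11.5 to 14.6) above the Cdh1-positive T-low cells from 0.75 ng/ml on. L1td1 was 4.27-, 4.10- and 4.15-fold above the former and 5.45-, 3.48- and 3.22-fold above the latter.

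The cut at 2 Cdh1 UMIs was then replaced by steps among all cells with at least 8 T and at most 1 Tbx6 UMIs, in a division chosen after the data were seen. At 12 ng/ml these were 198 cells with 0, 93 with 1, 80 with 2, 65 with 3 to 4 and 58 with 5 or more Cdh1 UMIs. Along these steps Krt8 was at 81.2, 225.9, 296.5, 296.2 and 689.7 CPM, Igfbp3 at 130.5, 246.4, 437.6, 505.5 and 685.9 CPM and L1td1 at 21.3, 40.8, 61.2, 97.0 and 110.3 CPM. Hoxb9 went the other way, with 194.7, 177.7, 106.6, 103.5 and 59.7 CPM, as did Rspo3, with 628.3, 563.5, 513.9, 442.0 and 264.8 CPM. Cells with 1 Cdh1 UMI, which the gate left out, thus lay between cells with 0 and cells with 2 for each of these 5 genes at 12 ng/ml. This did not hold throughout, since Krt8 at 3 ng/ml was at 43.1, 167.4 and 133.6 CPM with 0, 1 and 2 Cdh1 UMIs. Fgf8 had no such order, with 303.8, 335.4, 318.6, 365.2 and 237.4 CPM. Depth and T itself moved along the steps too, the median T count being 12, 14, 15, 16 and 20.5 UMIs and the median depth 29851, 29448, 28614.5, 32723 and 35603 UMIs, and their part in these levels was not tested.

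At 0.75 ng/ml, the steps held 140, 47, 38, 29 and 21 cells and the order was less even. Igfbp3 was at 109.3, 270.4, 348.0, 218.1 and 788.1 CPM there, and Hoxb9 at 244.0, 177.5, 115.0, 140.9 and 46.4 CPM. At 3 ng/ml, Igfbp3 was at 90.2, 234.4, 285.3, 422.0 and 638.6 CPM and Hoxb9 at 246.0, 176.3, 119.3, 130.6 and 23.4 CPM. In all 3 libraries the cells with the most Cdh1 had the highest Krt8, Igfbp3 and L1td1 and the lowest Hoxb9 and Rspo3 of the 5 steps.

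**Figure D5:**
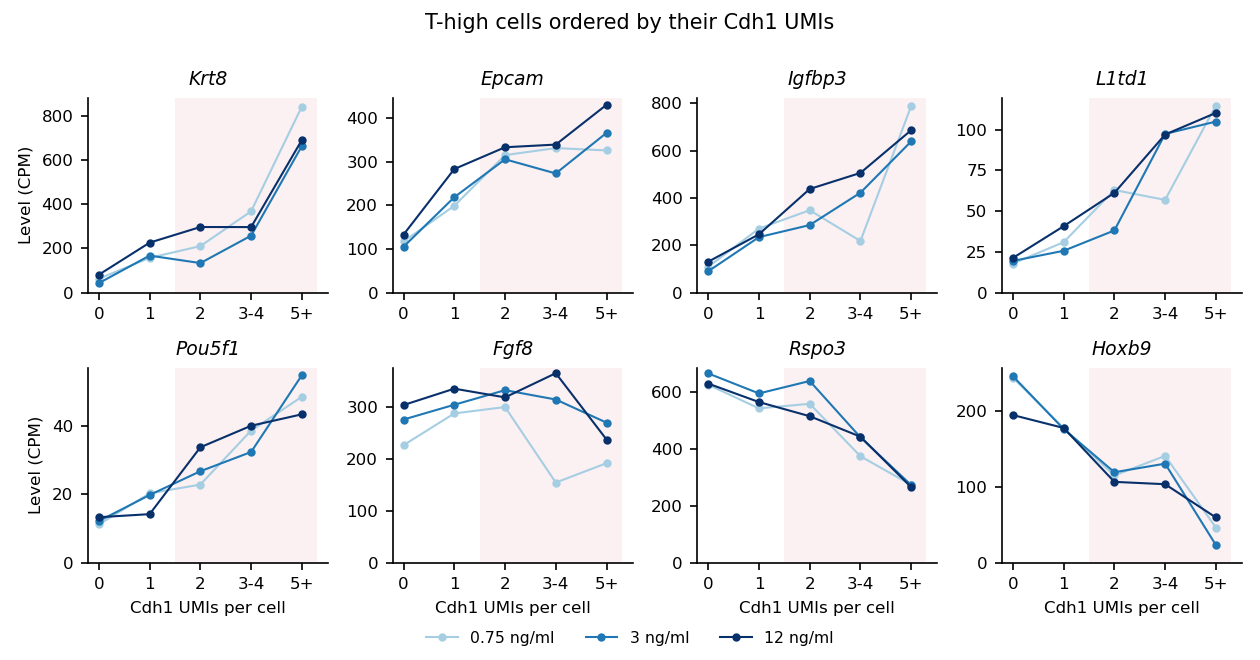
Level (CPM) of 8 genes among cells with at least 8 T and at most 1 Tbx6 UMIs, by their Cdh1 UMIs per cell, 1 line per FGF2 dose; the shaded steps belong to the gate. Krt8, Igfbp3 and L1td1 were highest in cells with 5 or more Cdh1 UMIs in all 3 libraries and Rspo3 and Hoxb9 were lowest there, while Fgf8 had no such order.

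The gated cells differed among themselves. After thinning to 10000 UMIs, the ratio of variance to mean had a median of 1.13, 1.12 and 1.13 over 2639 genes at 0.75, 3 and 12 ng/ml, where 1 stands for counting noise. It was 8.80, 7.17 and 7.22 for Igfbp3, 8.53, 9.38 and 9.04 for Sprr2a3, 10.1, 5.85 and 8.27 for Krt8, 10.8, 7.02 and 11.7 for Vim, and 4.99, 6.32 and 6.26 for Fst. Thinned Igfbp3 counts had a median of 2, 2 and 3 UMIs and a maximum of 33, 36 and 34, and no UMI in 29.5%, 23.8% and 22.7% of the gated cells. The 10% of cells with the most UMIs of the gene held 43.4%, 40.3% and 39.4% of Igfbp3 UMIs and 26.9%, 28.9% and 26.1% of Epcam UMIs, so that Epcam was spread more evenly.

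Pairs of these genes were compared across the gated cells of each library on thinned, log-transformed counts. The correlations are descriptions over 88, 168 and 203 cells that share a library and a gate on 3 genes. Krt8 and Krt18 correlated at 0.712, 0.682 and 0.771 at 0.75, 3 and 12 ng/ml, and Igfbp3 at 0.504, 0.462 and 0.474 with S100a10 and at 0.431, 0.305 and 0.384 with Fst. Hoxb9 was lower in cells with more Igfbp3 (-0.508, -0.333 and -0.398) and with more Fst (-0.358, -0.330 and -0.332). Krt8 and Rspo3 correlated at -0.256, -0.423 and -0.464.

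Between doses, few genes of the T-high Cdh1-positive cells passed the rule of size. From 0.75 to 3 ng/ml, none was higher (0.0%) and 2 (0.0643%) of 3112 were lower. From 3 to 12 ng/ml, 1 (0.0326%) of 3072 was higher and none lower (0.0%). Comparing 12 with 0.75 ng/ml, 4 (0.129%) of 3111 genes were higher and 6 (0.193%) lower, against 13 higher and 17 lower of 3044 in the other kept cells. The other kept cells also changed their make-up between these doses, as the share of Cdh1-positive T-low cells above shows, whereas the gate holds T, Tbx6 and Cdh1 within limits, so the counts are given side by side and were not tested.

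Isg15, an interferon-inducible ubiquitin-like modifier, had the largest ratio of the genes called higher in the gated cells at 12 than at 0.75 ng/ml. It stood at 57.5, 30.4, 56.3 and 111 CPM in the order of the doses, which is 3.65-fold (2.96 to 4.54) higher at 12 than at 0.75 ng/ml. In the other kept cells it stood at 2.83, 5.03, 11.5 and 17.4 CPM, a ratio of 3.47 (3.09 to 3.90). Cldn7, a claudin, was at 39.5, 21.5, 44.1 and 53.4 CPM in the gated cells and at 62.3, 58.9, 33.7 and 30.2 CPM in the others, so that the order of 0.75 and 12 ng/ml was opposite in the sets. Slc16a3, a lactate exporter, was at 80.5, 25.5, 45.2 and 63.0 CPM in the order of the doses, and Arl4d, a small GTPase gene, at 6.58, 19.7, 47.8 and 52.1 CPM. Among the lower genes, Hand1, a factor of lateral and extraembryonic mesoderm, stood at 41.1, 57.1, 28.6 and 19.8 CPM, and the BMP target Msx2 at 52.6, 68.8, 42.4 and 25.3 CPM. Nrp2, Tagln and Hspb1, a receptor, an actin-binding protein and a small heat shock protein, were also lower at 12 ng/ml.

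Counts of signaling targets are read against the 29.7% of 7838 genes that were higher and the 28.1% that were lower throughout. Of 15 FGF and ERK target genes, 13 had at least 10 CPM in all 3 libraries, and 7 were higher and 3 lower in the gated than in the other kept cells throughout, none by a ratio of 2 in all 3. Dusp4, a feedback phosphatase of this pathway, was at 105, 96.1, 94.7 and 92.6 CPM in the gated cells and at 23.3, 40.7, 60.9 and 56.8 CPM in the others, so that it was about as high without FGF2 as with 12 ng/ml in the former. Spry4, another feedback gene, was at 6.58, 20.6, 19.3 and 21.6 CPM. The receptor gene Fgfr1 was at 80.5, 87.2, 84.3 and 86.2 CPM against between 59.2 and 70.7 CPM. Of 11 measured Wnt target and feedback genes, 2 were higher and 4 lower, none by a ratio of 2. Among 7 measured BMP target genes 1 was higher and 2 lower, again none by a ratio of 2.

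Metabolic and cell cycle lists were counted against the 29.7% of 7838 genes that were higher and the 28.1% that were lower throughout. Of 16 genes of glucose uptake and glycolysis, 14 had at least 10 CPM, 12 were higher than in the other kept cells in all 3 libraries, none by a ratio of 2, and none was lower. All 6 measured p53 targets and CDK inhibitors were higher, with Cdkn1a, which encodes the cell cycle inhibitor p21, at 177, 164 and 220 CPM against 109, 114 and 112 CPM from 0.75 ng/ml on. Of 15 genes of the G2 and M phases 12 were higher and none lower, and of 13 S phase genes 1 was higher and 8 lower. Median depth also differed between the sets, as given above, and its part in these small differences was not tested.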

How the data were processed

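The authors sequenced 10x 3′ v3.1 libraries and deposited, per library, UMI counts per gene and cell barcode made with Cell Ranger (version 5.0.1 per the file headers, an earlier one in the methods) on mm10 with no normalization. No doublet filter was described or applied here.

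Kept cells had at least 2500 genes and at most 10% mitochondrial UMIs. CPM were computed from UMIs summed per set and library, with T, Tbx6 and Cdh1 left out of genes and totals. Intervals are exact Poisson, binomial or conditional 95% intervals. With 1 library per dose there was no test between conditions, and a call is a rule of size (at least 50 CPM in a set and a ratio of at least 2 in all 3 libraries with 20 or more gated cells). List counts used at least 10 CPM in either set. In calls and list counts alike, the direction was fixed for a gene that reached the minimum level in only 1 of the sets. Detection was compared after thinning each cell to 10000 UMIs. Named genes were list members at 10 CPM, the 10 first in each direction by smallest ratio against the other kept cells, the 5 first against each nearest set, and the 5 first for 12 over 0.75 ng/ml, in place of 12 over 0 as planned because 12 cells passed without FGF2. Others were named after their values were seen. The gated cells and all lists were chosen with earlier results of these data known, and the interferon, imprinted and retinoid lists after levels had been seen. For the gated against the other kept cells, data were simulated with counting noise only. There, 200 of 200 genes changed 3- or 5-fold were recovered, among 2298 genes drawn. Changes of this size exceed the cut of 2. Unevenness between cells was not simulated, so recovery in the real data was not tested. Alternatives changed the gate, depth, minimum level, ratio, weights, neighbors and libraries. Python 3.11.15, scipy 1.17.1 and scanpy 1.11.5 were used. Some items are not reported here.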

Additional observations from a re-analysis of the deposited data

Results flagged for a closer look

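Mt2, a metallothionein gene that buffers metal ions and whose counts may be shared with its near-identical copy Mt1, differed between libraries in its direction against the other kept cells. The log2 ratio was 1.047 at 12 ng/ml FGF2, and it was below -1 at 0.75 ng/ml. The level in the T-high Cdh1-positive cells was 263, 84.2, 82.6 and 87.2 CPM in the order of the doses, and in the other kept cells it was 271, 196, 72.0 and 42.2 CPM. The gated cells thus stood at similar levels from 0.75 ng/ml on, and the level of the other kept cells was lower at each higher dose. The opposite ratios of at least 2 ended in cells of 20000 to 40000 UMIs, with ratios of 0.598 and 1.637 at 0.75 and 12 ng/ml, and without the deepest 10% of cells, with 0.476 and 1.665. The difference between libraries was not tested, since each dose is 1 library.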

How the results depend on the processing

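No paired analysis was possible because there was 1 library per dose. Counts are given as genes higher and lower. Against the other kept cells at 3 ng/ml, Krt8 went from a ratio of 1.009 to 0.7496 in cells of 20000 to 40000 UMIs and 0.7724 without the deepest 10%, and Krt18 from 1.033 to 0.6793 and 0.6713. A gate on UMIs scaled to 25000 per cell gave shares of 0.295%, 1.43%, 4.24% and 5.07% in the order of the doses, and at least 3 Cdh1 UMIs 1.83%, 4.89% and 5.11% from 0.75 ng/ml on. At 3 ng/ml the share was 6.54% without the deepest 10% of cells and 6.68% among cells of 20000 to 40000 UMIs. Against the other kept cells, a minimum of 10 CPM gave 104 and 30 genes, a ratio of 1.5 gave 76 and 25, and cells of 20000 to 40000 UMIs gave 16 lower. Against T-high Cdh1-negative cells these settings gave 104 and 27, and 87 and 30. The scaled gate gave 52 and 14, at least 3 Cdh1 UMIs 52 and 12, and leaving out the deepest 10% gave 21 higher. Leaving out 1 library gave between 33 and 49 higher and between 8 and 14 lower genes, with 49 and 14 without 12 ng/ml. Fewer libraries have to pass then. Against Cdh1-positive T-low cells, 10 CPM gave 156 and 166, a ratio of 1.5 gave 96 and 110, and adding the library without FGF2 gave 17 lower. Between doses, 10 CPM gave 54 genes for 3 over 0.75 ng/ml, 11 for 12 over 3 and 76 for 12 over 0.75, and a ratio of 1.5 gave 23, 7 and 54. The scaled gate gave 17, 0 and 21, and cells of 20000 to 40000 UMIs 9 and 17 for the first and the last. Equal weights gave 4 for 3 over 0.75, and dividing by the median ratio 2 for 12 over 3. The pluripotency median was 0.946 with equal weights, the Hox median -0.932 at 20000 to 40000 UMIs, and with 30 neighbors 29.4% and 35.1% of neighbors were gated cells at 3 and 12 ng/ml. The cause of these shifts was not tested. Of 520 median log2 ratios of named genes over libraries under alternatives, 112 moved beyond the counting interval of the value reported and 0 reversed. This count does not cover Krt8 and Krt18 against the other kept cells, whose ratios at 3 ng/ml went from above to below 1, as given above. The named genes were chosen for a large ratio in the same direction in all 3 libraries, and some alternatives leave their ratios unchanged. A reversal among them was therefore unlikely from the outset. The 12 gated cells without FGF2 limit every value given for that dose.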

Other observations

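Other lists were counted among genes of at least 10 CPM in all 3 libraries with FGF2, in the T-high Cdh1-positive against the other kept cells, where 29.7% of all genes at that level were higher and 28.1% lower throughout. Several of these counts lie near those shares. Of 4 measured genes of primordial germ cells, 2 were higher throughout and none lower. Of 8 genes of the Notch pathway, 1 was higher and 5 lower, and of 6 genes of the caudal epiblast and neuromesodermal precursors 2 were higher and 3 lower. Nkx1-2, a homeobox gene of the caudal epiblast, stood at 24.7, 49.5, 54.1 and 43.9 CPM in the gated cells, in the order of the doses, and at 10.5, 20.7, 26.7 and 18.4 CPM in the other kept cells. Of 9 EMT factors and mesenchymal genes, 2 were higher and 1 lower, and of 7 genes of lateral and extraembryonic mesoderm 2 were higher and 1 lower. Of 5 Wnt ligands, 2 were higher and 1 lower, and of 4 BMP ligands and antagonists 2 were higher and 2 lower. Of 9 imprinted growth genes, a list chosen after levels had been seen, 4 were higher and 4 lower.

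Summed over the surface ectoderm list, the level was 221.9, 118.9, 90.5 and 91.9 CPM in the gated cells and 243.7, 215.6, 104.3 and 69.7 CPM in the other kept cells, so that the order of the sets was opposite at 12 ng/ml. For the extraembryonic ectoderm list it was 90.4, 82.0, 48.9 and 37.3 CPM in the gated cells and 171.6, 87.3, 55.8 and 51.2 CPM in the others.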
